A study of Mus musculus with 3 samples.

Results

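Binding of HDAC3 and KLF4 was examined at 10 genes of the epidermal tight junction: the claudin genes Cldn1, Cldn3, Cldn4, Cldn7, Cldn8, Cldn12 and Cldn23, the occludin gene Ocln, the scaffold gene Tjp1 (ZO-1) and the junctional adhesion molecule gene F11r (JAM-A). They are 10 of 21887 protein-coding genes on the mouse chromosomes. A peak was assigned to one of them when its nearest protein-coding gene end belonged to it or when it was centred within 1 kb of one of its ends. This gave 69 of 57936 HDAC3 peaks and 71 of 47155 KLF4 peaks, each assigned to 1 of the genes. Nearest position alone does not show that a distant peak acts on the gene.

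The data were chromatin immunoprecipitation with sequencing (ChIP-seq) of dorsal epidermis taken at E18.5 from mouse embryos that were wild-type. One antibody, Abcam ab7030, was directed at HDAC3 and the other, R&D AF3158, at KLF4; the remaining library was an input made without antibody. Sequencing gave 56787485 tags for HDAC3 and 61432711 for KLF4, and the input amounted to 2.57 tags per peak width if spread evenly. Each antibody had 1 library, so no difference between libraries could be tested, and intervals below are 95% intervals that cover counting error only. Epidermis holds several cell layers and types, and these lists do not separate them; expression of the genes was not measured.

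Tight junctions seal the space between neighbouring cells. Claudins span the membrane several times and polymerise into the strands that set which ions and solutes pass, occludin and JAM-A sit in the same contacts, and ZO-1 ties the strands to actin from the cytoplasmic side. In skin the functional tight junctions lie in the granular layer, beneath the cornified layer, and mice that lack claudin-1 die soon after birth from water loss. HDAC3 removes acetyl groups from histones within the NCoR and SMRT corepressors, while KLF4 is a DNA-binding factor without which newborn mice fail to form a working skin barrier.

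The letters upstream of 4 of these genes are shown because each had a peak called at or beside its start, with both factors at Cldn4 and KLF4 alone at the others. Cldn7 also had a KLF4 peak beside a start; to limit the letters printed, its windows are described only, with 2 CCNCNCCC matches before the first start, 1 TGACGTCA match before the second and no TGANTCA in either. Each line gives the 250 bases before the annotated start, 5′ to 3′ on the transcribed strand, from RefSeq on GRCm38.p6. Capitals mark matches to the AP-1 motif TGANTCA or to the KLF motif CCNCNCCC on either strand. Promoter entries matched 8 of the 10 genes, all but Cldn8 and Cldn23.
Cldn4, chr5:134946935-134947184, minus strand: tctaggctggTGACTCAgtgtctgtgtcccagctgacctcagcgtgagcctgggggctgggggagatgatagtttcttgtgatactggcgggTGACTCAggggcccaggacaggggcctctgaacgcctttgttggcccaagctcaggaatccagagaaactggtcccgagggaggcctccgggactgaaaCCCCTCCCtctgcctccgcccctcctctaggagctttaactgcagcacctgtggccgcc
Cldn3, chr5:134985964-134986213, plus strand: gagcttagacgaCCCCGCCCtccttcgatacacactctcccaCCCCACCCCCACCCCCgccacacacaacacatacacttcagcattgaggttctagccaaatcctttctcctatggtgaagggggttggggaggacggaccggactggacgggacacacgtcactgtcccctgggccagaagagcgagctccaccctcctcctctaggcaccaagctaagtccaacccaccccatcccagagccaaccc
Cldn1, chr16:26371840-26372089, minus strand: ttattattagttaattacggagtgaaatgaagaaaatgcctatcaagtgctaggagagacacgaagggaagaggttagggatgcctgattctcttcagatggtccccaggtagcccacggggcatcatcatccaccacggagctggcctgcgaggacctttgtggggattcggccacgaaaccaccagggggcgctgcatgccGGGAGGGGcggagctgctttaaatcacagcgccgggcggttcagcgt
F11r, chr1:171437311-171437560, plus strand: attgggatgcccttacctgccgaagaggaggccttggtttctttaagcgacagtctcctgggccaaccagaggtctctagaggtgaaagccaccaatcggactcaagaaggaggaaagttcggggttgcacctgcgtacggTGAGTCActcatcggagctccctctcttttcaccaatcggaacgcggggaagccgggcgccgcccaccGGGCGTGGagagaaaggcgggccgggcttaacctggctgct

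Cldn4, a barrier-forming claudin that also serves as a receptor for Clostridium perfringens enterotoxin, had the highest peaks of both factors among the 10 genes. The gene lies at chr5:134945123-134946934 on the minus strand of GRCm38. Its start was covered by an HDAC3 peak at chr5:134946933-134947117 and a KLF4 peak at chr5:134946919-134947103, centred 91 and 77 bp upstream of the start and 14 bp apart. The HDAC3 library had 230 tags there, against 1 tag in the input. The KLF4 library had 436 tags, against 2 tags in the input. By the caller’s score, a tag number used here to rank peaks within a list, the HDAC3 peak scored 161 and 0.119% of its list scored higher; the KLF4 peak scored 406 and 0.691% of its list scored higher. The fold over input was 114 for HDAC3 (interval 20 to 4465) and 99.8 for KLF4 (27.2 to 817), and the width of both intervals comes from the near absence of input tags. Folds and scores of single peaks are the authors' values throughout, except folds at peaks with 0 input tags. Intervals of folds were computed from the tag numbers.

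The Cldn4 letters above were largely covered by the peaks: 183 of the 250 bases lay in the HDAC3 peak and 169 in the KLF4 peak. They held 2 copies of TGACTCA, beginning 240 and 158 bp before the start, and only the nearer one lay inside both peaks, 64 bp from the HDAC3 centre and 78 bp from the KLF4 centre. The KLF match CCCCTCCC began 59 bp before the start, 36 bp from the HDAC3 centre and 22 bp from the KLF4 centre. Of 32851 such windows of all genes, 6.75% held TGANTCA and 0.338% held 2 or more copies. CCNCNCCC occurred in 45.9% of them. The shorter KLF core CACCC, which can overlap CCNCNCCC and TGANTCA, occurred in 52.0% of windows and in 1 copy at Cldn4, on the opposite strand and inside both peaks. No match in the Cldn4 window was found for AP-2 (GCCNNNGGC), grainyhead-like (AACCGGTT), C/EBP (TTGCGCAA), CRE (TGACGTCA) or TBP (TATAAA) letters, each read on both strands. In all windows these occurred in 13.7%, 0.116%, 0.164%, 1.55% and 12.4% of cases. A match is a description of the letters and not a measured site.

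Cldn4 carried further strong peaks close by. Past its 3′ end, an HDAC3 peak of score 80 (113 tags, against 6 input tags) lay 650 bp outside the gene, and a KLF4 peak of score 271 (287 tags, against 6 input tags) lay 698 bp outside it. A KLF4 peak of score 266 lay 335 bp inside the same end, with the nearest HDAC3 peak centre 985 bp away. Another pair lay 10336 bp upstream of the gene for HDAC3 (score 61) and 10338 bp for KLF4 (score 183), with centres 2 bp apart. All 3 HDAC3 peaks of Cldn4 overlapped a KLF4 peak (25.8% of all HDAC3 peaks did) and stood in the top decile of the HDAC3 list (10.2% of it with ties). Overlap was common in that decile, at 86.5% of the HDAC3 peaks there that were not assigned to the 10 genes. Of the 5 KLF4 peaks of Cldn4, 4 stood in the top decile of the KLF4 list (10.1% with ties).

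**Figure D1:**
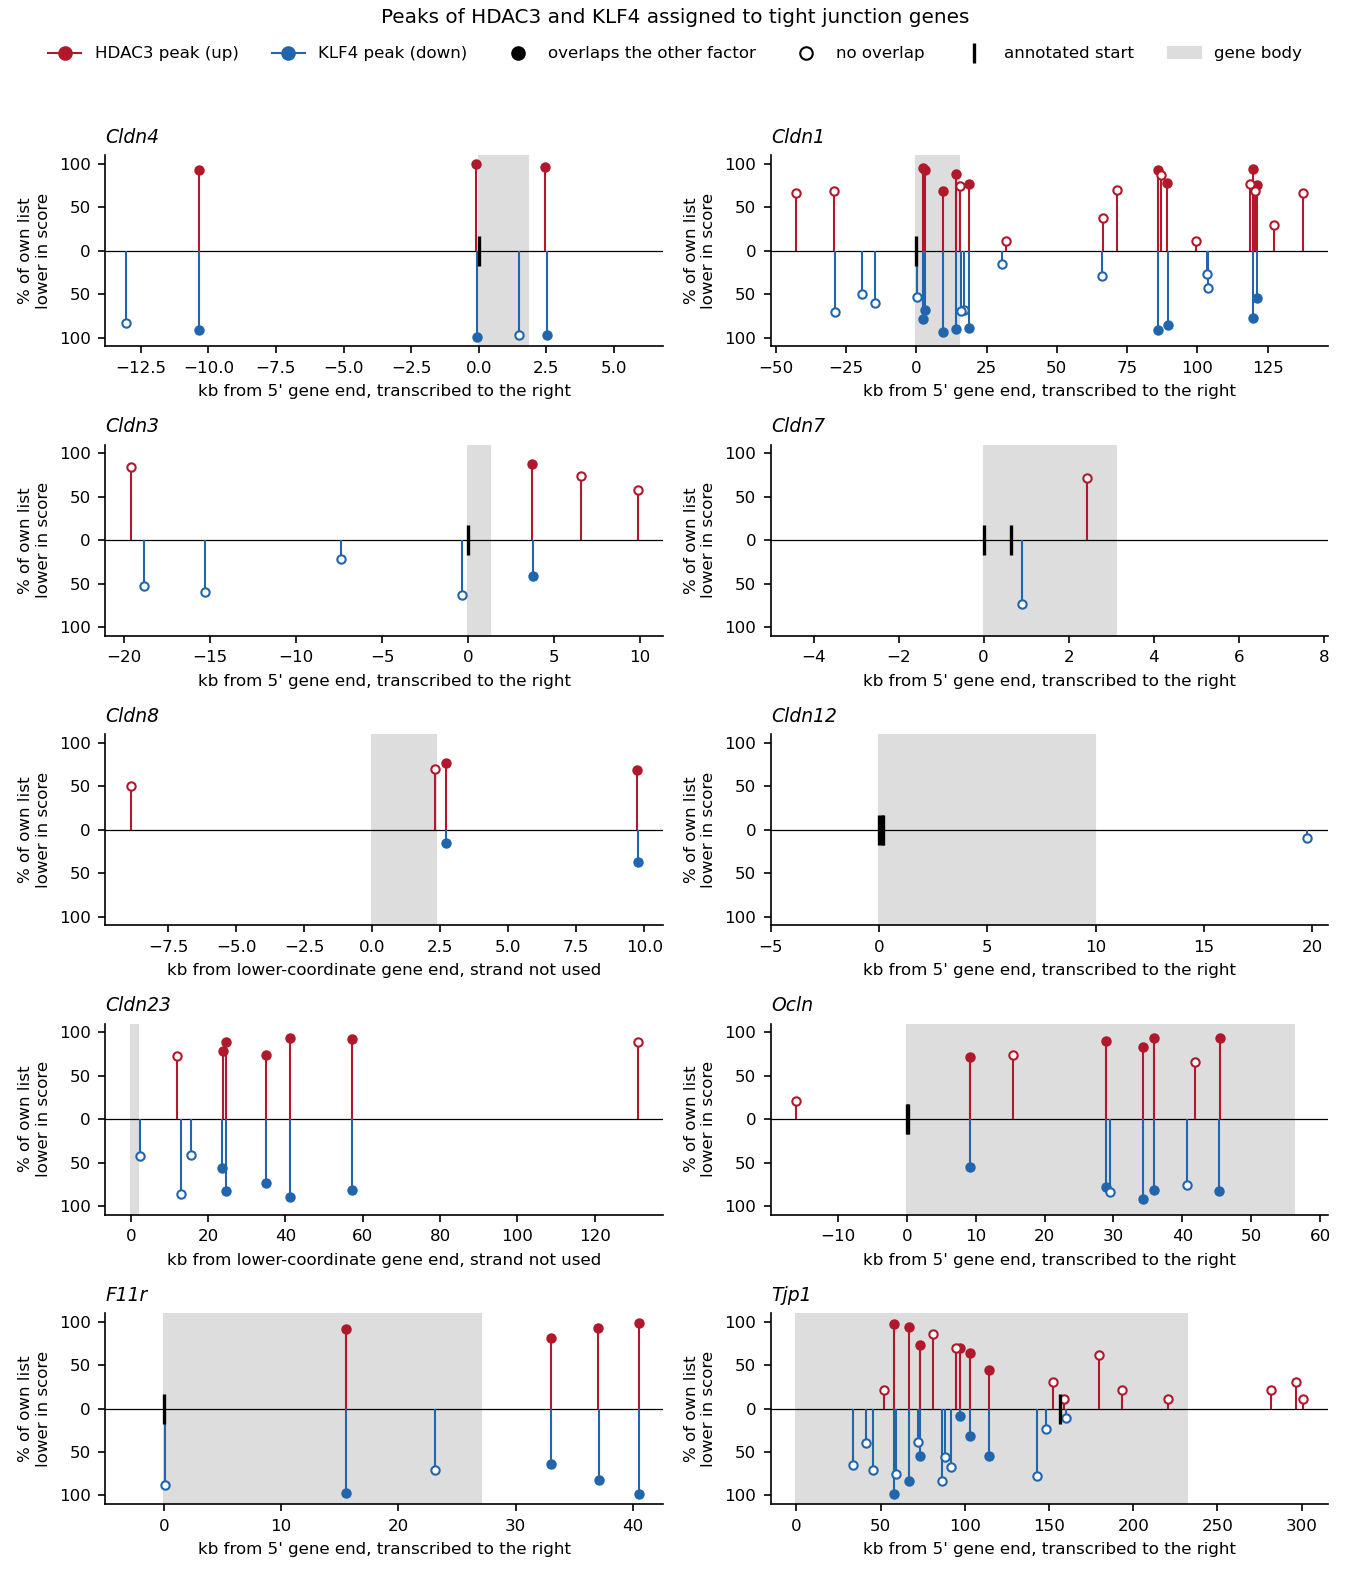
Peaks assigned to each gene, by distance in kb from the 5′ gene end (from the lower-coordinate end for Cldn8 and Cldn23) and by the percentage of their own list with a lower score; HDAC3 points up, KLF4 points down, filled points overlap the other factor, black ticks are annotated starts. Cldn4 has filled points of both factors near 100% at its start, while the Tjp1 peaks of both factors lie mainly before its annotated start.

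Cldn3, which encodes the close relative of claudin-4 and lies next to it (chr5:134986214-134987476, plus strand), looked different. It had 4 HDAC3 and 5 KLF4 peaks, scoring 23 to 49 in the HDAC3 list and 37 to 82 in the KLF4 list, and none reached the top decile of its list. Its highest KLF4 peak, at chr5:134985767-134985951, was centred 355 bp upstream of the start (score 82, 81 tags against 4 input tags, 9.27-fold, interval 3.45 to 34.4). It ended just short of the letters shown, which held 5 copies each of CACCC and CCNCNCCC and no TGANTCA. No HDAC3 peak lay nearer to the start than 3720 bp. That HDAC3 peak (score 49, 68 tags against 4 input tags) made the 1 overlap at the gene, with a KLF4 peak of score 55 whose centre lay 56 bp away.

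Cldn1, the claudin needed for the epidermal water barrier, had the most peaks assigned, 21 HDAC3 and 19 KLF4 peaks, of which 9 of each formed overlapping pairs. Among genes nearest to any peak the median was 2 peaks for each factor. Of all protein-coding genes, 6.01% had 10 or more HDAC3 peaks and 4.16% had 10 or more KLF4 peaks. Inside Cldn1 lay 4 of its HDAC3 and 5 of its KLF4 peaks, and the numbers were not adjusted for the distance to neighbouring genes. Cldn1 spans chr16:26356645-26371839 on the minus strand. At its start, only KLF4 had a peak (score 68, 73 tags against 6 input tags, 5.50-fold, interval 2.41 to 15.5), centred 68 bp downstream of the start. The letters upstream held no TGANTCA and 1 KLF match, which lay 111 bp from the KLF4 centre and outside the peak. The highest HDAC3 peak of the gene, at chr16:26369478-26369662, lay 2269 bp downstream of the start (score 70, 78 tags against 2 input tags, 19.1-fold, interval 5.11 to 160.4), and a KLF4 peak of score 116 shared that position to within 4 bp. Another pair lay 3204 bp and 3156 bp downstream (HDAC3 61, KLF4 90). The highest KLF4 peak, at chr16:26362252-26362436, lay 9495 bp downstream (score 213, 219 tags against 5 input tags, 20.1-fold, interval 8.37 to 61.7), over an HDAC3 peak of score 27.

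Near the other end of Cldn1, an HDAC3 peak of score 49 lay 937 bp inside the gene and a KLF4 peak of score 172 lay 942 bp inside it, 5 bp apart; these were its highest gene-end peaks. Another couple at that end, HDAC3 of score 31 and KLF4 of score 94, had centres 189 bp apart and so fell just outside the limit of 184 bp for an overlap. The widest couple that still counted, at Tjp1, was 134 bp apart. From 50705 bp beyond the 3′ end outward, Cldn1 had a separate group of peaks, led by a pair 70818 bp outside the gene for HDAC3 (score 62) and 70845 bp for KLF4 (score 180), and a pair 104726 bp outside for HDAC3 (score 64) and 104747 bp for KLF4 (score 111). The pair farther out lay at a long noncoding RNA gene: its HDAC3 peak was centred 1 bp from an annotated end of Gm41436. When noncoding genes were also considered, 8 HDAC3 and 11 KLF4 peaks stayed with Cldn1.

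Cldn7, Cldn8 and Cldn12 had no peak in the top decile of either list. Cldn7, a claudin found along the lateral membrane of many epithelia (chr11:69964779-69967886, plus strand), had 1 peak of each factor, at different sites. Its KLF4 peak, at chr11:69965590-69965774, lay 261 bp downstream of the second of its 2 annotated starts (score 103, 105 tags against 3 input tags, 15.8-fold, interval 5.27 to 78.1). Its HDAC3 peak lay 670 bp inside the other end (score 29, 41 tags against 4 input tags, 5.02-fold, interval 1.82 to 19.3). Cldn8, which encodes a claudin of kidney collecting ducts (chr16:88560826-88563183), had HDAC3 peaks on both sides of 1 end, 60 bp inside it (score 28) and 347 bp outside it (score 33). Only the outer one overlapped a KLF4 peak (score 31, 30 tags against 1 input tag), and 84.6% of the KLF4 list scored higher than that peak. In all, Cldn8 had 4 HDAC3 and 2 KLF4 peaks. Its other pair lay 7364 bp outside the gene for HDAC3 (score 27, 33 tags against 0 input tags) and 7397 bp for KLF4 (score 50, 52 tags against 2 input tags). Cldn12, a claudin without the PDZ-binding tail that most claudins use to bind ZO proteins (chr5:5505015-5514976, minus strand), had no HDAC3 peak and 1 KLF4 peak of score 26, placed 9803 bp outside the gene and nearer to the noncoding gene Gm30325. No call is not absence: the lowest score the caller let through was 16 for HDAC3 and 19 for KLF4, and 4-fold enrichment was also required.

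At Cldn23, a claudin gene at chr8:35824709-35826559, the stronger peaks lay away from the gene. A KLF4 peak of score 56 lay 461 bp outside one end (57 tags against 6 input tags, 4.30-fold, interval 1.86 to 12.2), just above the calling limit of 4-fold. Farther out on that side, between 21876 and 55406 bp from the gene, 5 pairs of both factors followed. The highest pair lay 39333 bp outside for HDAC3 (score 64, 86 tags against 3 input tags, 14-fold, interval 4.64 to 69.4) and 39306 bp outside for KLF4 (score 173, 178 tags against 3 input tags, 26.8-fold, interval 9.04 to 131). A pair 55406 bp outside for HDAC3 (score 59) and 55338 bp outside for KLF4 (score 125) came next in HDAC3 score. Each of the 5 pairs was nearer to an end of the long noncoding RNA gene 5430403N17Rik than to Cldn23.

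Ocln encodes occludin, a membrane protein of the junction that interacts with ZO-1 (chr13:100496504-100552718, minus strand). Inside the gene lay 7 of its 8 HDAC3 peaks and 7 of its 7 KLF4 peaks, the nearest to an annotated start being 9006 bp away for HDAC3 and 8993 bp for KLF4. Its highest KLF4 peak, at chr13:100518289-100518473, scored 196 (198 tags against 5 input tags, 17.9-fold, interval 7.55 to 55.8). Its highest HDAC3 peaks both scored 64 and lay at chr13:100507197-100507381 and chr13:100516785-100516969. Their tags were 79 and 90, against 9 and 10 input tags, so that the folds of 4.30 (interval 2.15 to 9.74) and 4.40 (2.29 to 9.50) were close to the calling limit. A further HDAC3 peak in the top decile, at chr13:100523780-100523964, scored 53 (74 tags against 3 input tags, 12.1-fold, interval 3.97 to 59.9). All 3 overlapped KLF4, with centres 38 to 52 bp apart.

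F11r, whose JAM-A protein marks early cell contacts and recruits polarity proteins (chr1:171437561-171464593, plus strand), had 4 HDAC3 peaks, all of which overlapped a KLF4 peak, and 6 KLF4 peaks. KLF4 alone had a peak beside the start. That peak, at chr1:171437583-171437767, began just downstream of the start and was centred 114 bp downstream (score 160, 167 tags against 10 input tags, 7.55-fold, interval 4.01 to 16.1). The letters before that start held 1 TGAGTCA, 220 bp from the KLF4 centre, and 1 KLF match, GGGCGTGG, 152 bp from it. Both matches lay outside the peak. The nearest HDAC3 peak lay 15519 bp downstream, inside the gene, at chr1:171452988-171453172, 2 bp from a KLF4 centre. The HDAC3 library had 69 tags there and the KLF4 library 298 tags, while the input had 0 tags in both peak windows. Set against a floor of 3 input tags per peak, the fold was 11.3 for HDAC3 and 44.9 for KLF4. The exact intervals used for the other folds had lower limits of 8.91 for HDAC3 and 36.3 for KLF4. Past the gene, a pair lay 10010 bp outside for HDAC3 (score 60) and 10057 bp outside for KLF4 (score 129). The highest pair lay beyond it, 13496 bp outside for HDAC3 (score 92, 131 tags against 11 input tags, 5.83-fold, interval 3.15 to 12.0) and 13486 bp outside for KLF4 (score 344, 389 tags against 13 input tags, 13.6-fold, interval 7.83 to 25.7).

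Tjp1, which encodes the ZO-1 scaffold (chr7:65296165-65527850, minus strand), had 17 peaks of each factor and none within 5 kb of its ends. All 17 KLF4 peaks and 14 of 17 HDAC3 peaks lay inside the annotated gene. The start used in the promoter table lay well inside that span. Upstream of it but within the gene lay 16 of the KLF4 peaks and 10 of the HDAC3 peaks. The highest pair lay 98536 bp upstream of that start for HDAC3, at chr7:65469688-65469872 (score 87, 122 tags against 10 input tags, 5.97-fold, interval 3.14 to 12.8), and 98590 bp upstream for KLF4, at chr7:65469742-65469926 (score 336, 364 tags against 10 input tags, 16.5-fold, interval 8.86 to 34.7). Another pair, 6 bp apart, lay 89713 and 89707 bp upstream (HDAC3 64, KLF4 136). The remaining HDAC3 peaks were lower, the median over all 17 being 20, and 6 of the 17 overlapped KLF4.

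**Figure D2:**
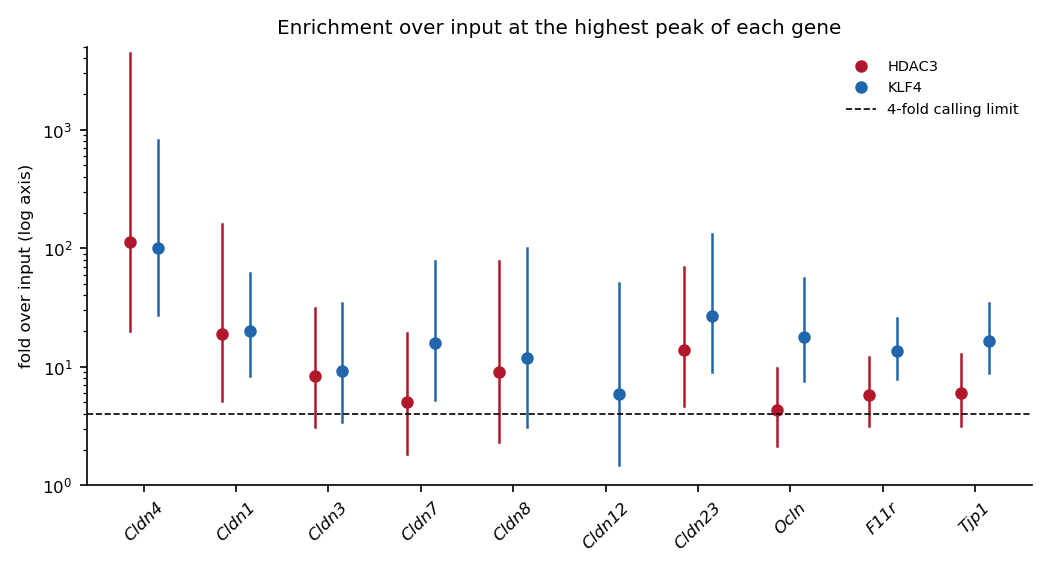
Fold over input at the highest peak of each factor for each gene (log axis), with 95% counting intervals; where peaks tied in score, the one at the lower coordinate is shown, and Cldn12 had no HDAC3 peak. Cldn4 stands highest for both factors, at 114 for HDAC3 and 99.8 for KLF4, and the intervals of several other genes reach below the 4-fold calling limit drawn as a dashed line.

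At gene ends, which here means within 1 kb of either end, HDAC3 was called at 4 of the 10 genes (Cldn1, Cldn4, Cldn7 and Cldn8), against 18.9% of all protein-coding genes. A KLF4 peak was found at 7 of 10 (the same genes with Cldn3, Cldn23 and F11r), against 23.1% of all genes. Both factors were present at 4 of 10, against 10.3% of all genes. This count takes the ends of a gene together, and at Cldn7 the HDAC3 and KLF4 peaks lay at opposite ends. Nearest to the 1 kb limit were the Cldn1 peaks at 937 bp (HDAC3) and 942 bp (KLF4) and the Cldn7 KLF4 peak at 903 bp. The nearest assigned peak beyond the limit was a Cldn1 KLF4 peak at 1746 bp. No gene had HDAC3 alone, and Cldn12, Ocln and Tjp1 had neither. These counts rest on 10 genes picked with earlier results known and were not tested. In the order of gene-end HDAC3 scores, Cldn4 (161) was followed by Cldn1 (49), Cldn8 (33) and Cldn7 (29). For KLF4 the order was Cldn4 (406), Cldn1 (172), F11r (160), Cldn7 (103), Cldn3 (82), Cldn23 (56) and Cldn8 (31). With 1 library per antibody, whether neighbours in either order differ could not be tested. Among all genes with a gene-end peak the median score was 30 for HDAC3 and 73 for KLF4.

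**Figure D3:**
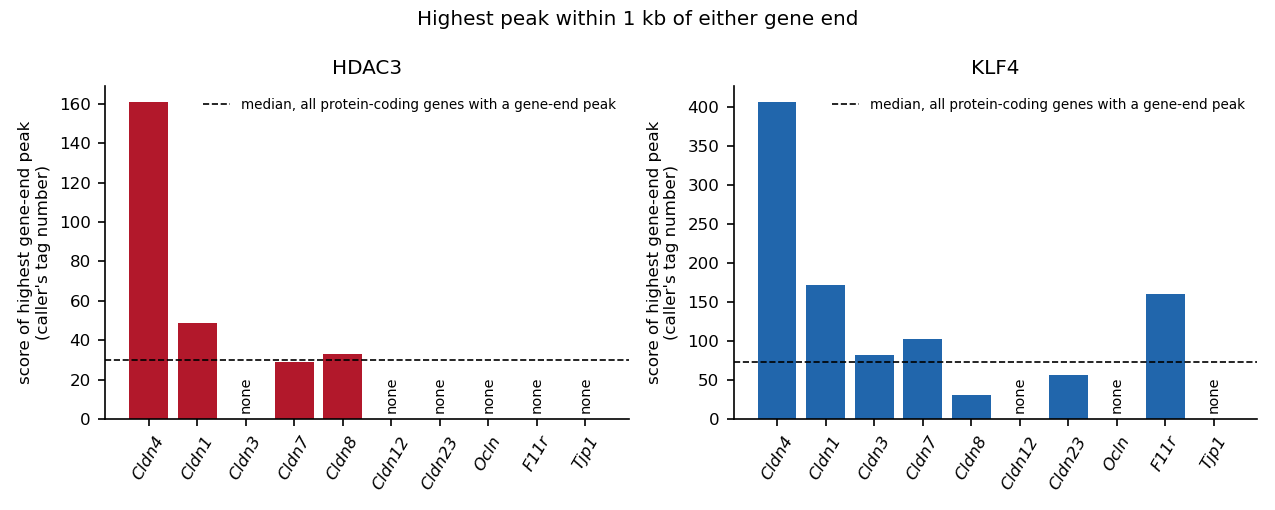
Score of the highest peak within 1 kb of either gene end, for HDAC3 and for KLF4, on separate axes; dashed lines are the medians of all protein-coding genes with such a peak, 30 and 73, and "none" marks genes without a called peak. Cldn4 stands above the rest for both factors, and Cldn8 has HDAC3 above and KLF4 below the median.

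Annotated starts were also taken alone. Of the 8 genes with a promoter entry, 5 had a KLF4 peak within 1 kb of a start (Cldn1, Cldn3, Cldn4, Cldn7 and F11r), against 21.3% of 17492 genes. An HDAC3 peak was there at Cldn4 alone, 1 of 8, against 15.9% of genes, which made it also the 1 gene with both factors, against 9.06% of genes. Within 5 kb of an end, 7 of 10 genes had an HDAC3 peak and 8 of 10 a KLF4 peak, where 46.2% and 46.0% of all genes did. Cldn23 for HDAC3 (score 20) and Ocln for HDAC3 (42) and KLF4 (102) counted there only through peaks nearer to another gene. Those peaks are not among the assigned ones. At any distance, HDAC3 peaks were assigned to 9 of 10 genes and KLF4 peaks to 10 of 10, where 64.8% and 59.2% of all genes were nearest to some peak, and 9 of 10 had both, against 49.8% of all genes. In gene-end scores the genes most like Cldn4, by the distance between pairs of rank percentiles over the 2 precipitations, were Aldh3b2 and Aldh3b3 (169 for HDAC3 and 433 for KLF4 at each, 0.242 percentage points away, with peaks shared by both genes) and Sp6 (137 and 374, 0.387 points away).

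Taking all assigned peaks, 35 of 69 HDAC3 peaks shared 1 bp or more with a KLF4 peak (50.7%, exact Clopper-Pearson interval 38.4 to 63.0), against 25.8% of all HDAC3 peaks on chromosomes. Of the KLF4 peaks, 35 of 71 overlapped an HDAC3 peak (49.3%, 37.2 to 61.4), against 31.7% of all KLF4 peaks. The share rose with score in the whole list, and the assigned peaks were higher: the median score was 31 for HDAC3 (22 in the rest of the list) and 95 for KLF4 (65 in the rest). In the top decile of the HDAC3 list, 17 of 17 assigned peaks overlapped KLF4 (interval 80.5% to 100%), against 86.5% of the other peaks there. Below it, 18 of 52 did (34.6%, 22.0 to 49.1), against 18.9%. For KLF4 the shares were 10 of 11 in the top decile (90.9%, 58.7 to 99.8), against 68.4%, and 25 of 60 below it (41.7%, 29.1 to 55.1), against 27.6%. Peaks of 1 gene share their surroundings and are not independent, so these intervals are too narrow as statements about genes.

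**Figure D4:**
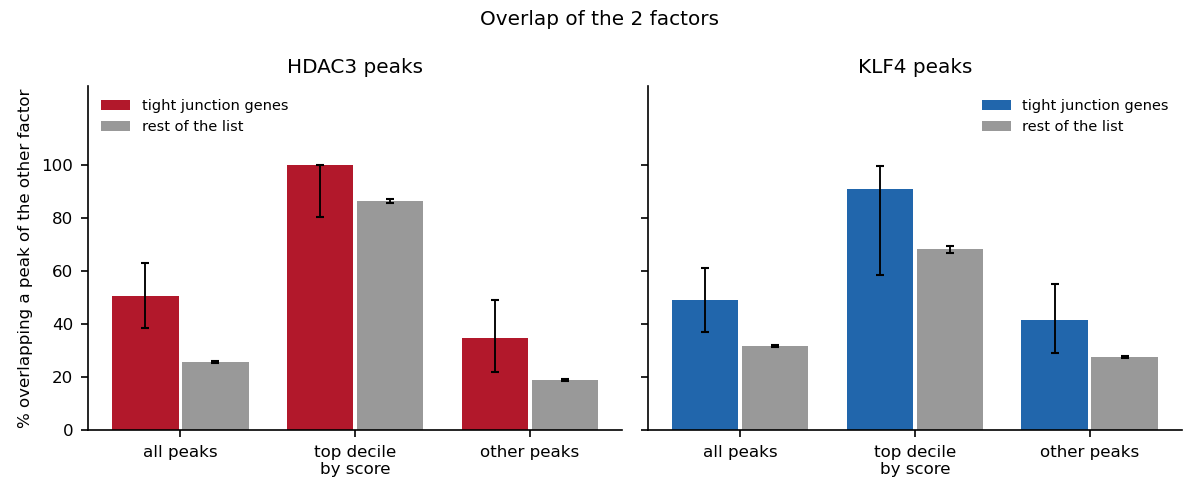
Percentage of peaks that overlapped a peak of the other factor, for peaks assigned to the 10 genes (coloured) and the rest of each list (grey), with exact 95% intervals; groups are all peaks, the top decile of the list by score and the remaining peaks. The coloured bar is the higher one in each pair, with 50.7% against 25.8% for all HDAC3 peaks and 49.3% against 31.7% for all KLF4 peaks. In the top decile, the interval of the coloured bar includes the grey value for each factor (86.5% for HDAC3, 68.4% for KLF4).

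The overlapping pairs were closely centred. Among the 35 pairs the median distance between centres was 33 bp (range 2 to 134 bp) and 26 pairs (74.3%) were within 50 bp, against a median of 31 bp and 69.5% for all 14962 pairs. Overlap varied between genes, from 4 of 4 HDAC3 peaks at F11r and 3 of 3 at Cldn4 to 1 of 4 at Cldn3 and 0 of 1 at Cldn7. Between these were 5 of 7 at Cldn23, 5 of 8 at Ocln, 2 of 4 at Cldn8, 9 of 21 at Cldn1 and 6 of 17 at Tjp1. Among unshared peaks the highest HDAC3 score was 50, at Cldn23, and the highest KLF4 score was 266, inside Cldn4. Enrichment itself was ordinary for the lists: the median fold over input was 6.69 for the assigned HDAC3 peaks (6.85 in the rest) and 9.65 for the assigned KLF4 peaks (8.60 in the rest). Input tags were also more numerous at the assigned peaks, with a median of 3 at the assigned HDAC3 peaks (2 in the rest) and 4 at the assigned KLF4 peaks (3 in the rest). Their part in the overlap was not tested.

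**Figure D5:**
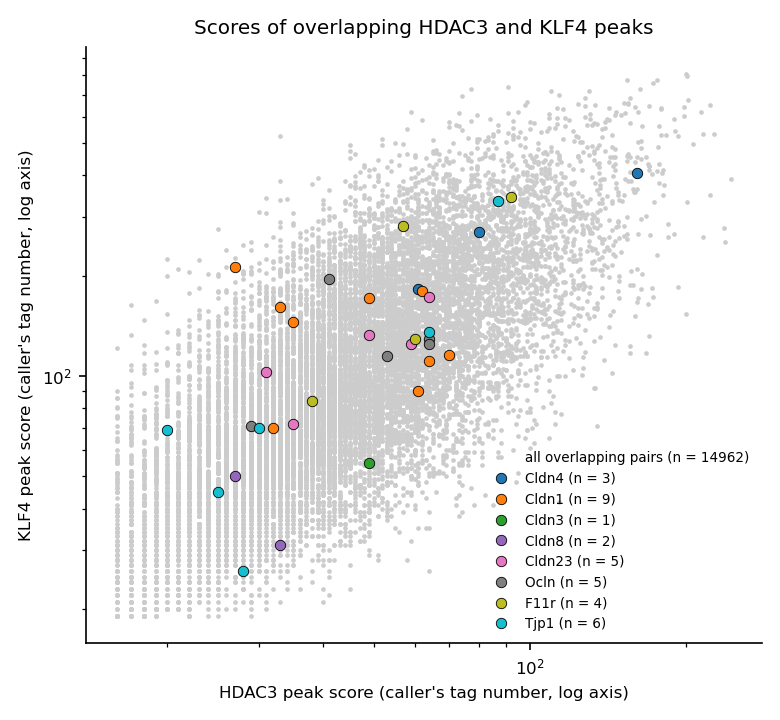
HDAC3 score against KLF4 score for overlapping pairs, both on log axes: grey dots are all 14962 pairs and coloured dots the 35 pairs at the tight junction genes. The Cldn4 start pair (161 and 406) lies in the upper right, followed by pairs of F11r (92 and 344) and Tjp1 (87 and 336), while pairs of Cldn8 and Tjp1 lie at the lower left.

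Other genes of the tight junction gave a comparison from a list of 49 genes. Of these, 8 (16.3%) carried HDAC3 at a gene end, where 18.9% of all genes did. KLF4 was at an end of 17 (34.7%), where 23.1% of all genes had it. Both factors were at an end of 3 of the 49, where 10.3% of all genes had both. The 17 claudins outside the 10 genes contributed 1 gene with HDAC3 (5.88%) and 3 with KLF4 (17.6%). Of the 32 listed genes that were not claudins, 7 had HDAC3 (21.9%) and 14 had KLF4 (43.8%). High HDAC3 gene-end scores were found at Amotl1 (66) and Amotl2 (48), both of the angiomotin family. High KLF4 gene-end scores were found at Tjp3 (ZO-3, 300, chr10:81291501-81291685) and Cgn (cingulin, a junction plaque protein, 125). None of these 4 peaks overlapped a peak of the other factor.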

How the data were processed

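Per the submitters' processing notes, the tools were bcl2fastq, STAR and HOMER and the build was GRCm38.p5; no tool version was given in those notes. Peaks of 185 bp were called by the authors for each precipitation against the 1 input library. Per the file headers, a peak needed 4-fold enrichment over input and over 10 kb of surroundings, a p-value (Poisson) of 1e-04 and a false discovery rate of 0.001. The deposited lists give tag numbers as a signal scaled to a fixed library size, input tags, a focus ratio as a fraction, a score, the fold (ratio) over input and local background, and a p-value for each; these p-values were used only as the authors' filter. In the HDAC3 library 3.95% of tags lay in peaks, and in the KLF4 library 6.81%.

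From these, tag numbers were returned to whole tags with each library's total. Folds at 1 or more input tags were given exact 95% intervals. At 0 input tags, the fold was set against a floor of 3 tags and given with an exact lower limit. PCR copies are not independent molecules, so these limits cover counting error only. Peaks on unplaced contigs (16 HDAC3, 15 KLF4) were left out of shares. Genes and promoter windows came from RefSeq on GRCm38.p6. An overlap was at least 1 bp. Python 3.11.15, pandas 2.3.3, numpy 2.4.6, scipy 1.17.1 and matplotlib 3.10.9 were used, and the assignment was tested on simulated data.

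The 10 genes and all lists were chosen with earlier results of these data known. Open to naming were each gene's highest peak and highest gene-end peak per factor, its peaks in the top decile of a list, the 3 other tight junction genes with the highest gene-end score per factor, and the 3 genes nearest to Cldn4. One gene that the rule names is not reported here. Peaks described at gene starts, outside a limit or as a contrast fall outside that rule and were chosen after their values were seen. Alternatives covered an 8-fold limit, the upper part of each list by score, other overlap limits and a 5 kb window. They also covered a limit of 50 kb from the gene, all annotated genes and, chosen after seeing the data, annotated starts.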

Additional observations from a re-analysis of the deposited data

How the results depend on the processing

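Of 34 alternative values, 21 stayed within 1.5 times the reported count or inside the reported share's 95% interval, and 13 did not. Requiring 8-fold over input in both lists left 27 HDAC3 peaks (69 reported) and 43 KLF4 peaks (71 reported) at the 10 genes. Of these KLF4 peaks, 34.9% (15 of 43) overlapped HDAC3, where 49.3% did before. The overlap share of the whole KLF4 list under that limit is not given here, so no comparison with the list can be drawn. The 8-fold limit left 4 HDAC3 and 8 KLF4 genes among the 49 other tight junction genes (8 and 17 reported). Keeping the upper part of each list by score left 5 KLF4 genes there. Shares of all genes under these settings are not given here. Counting noncoding genes as neighbours left 40 HDAC3 peaks. Keeping only assigned peaks at most 50 kb from the gene left 52 HDAC3 and 63 KLF4 peaks. A 5 kb window gave 7 of the 10 genes with HDAC3 and 7 with both factors (4 and 4 reported). Cldn23 and Ocln had HDAC3 there only through peaks not assigned to them. Among the 49 other tight junction genes, that window gave 19 with HDAC3 and 32 with KLF4. Within 5 kb, 46.2% of all genes had HDAC3 and 46.0% had KLF4, and the share with both is not given here. Annotated starts alone, an alternative chosen after seeing the data, gave 1 gene with HDAC3 and 1 with both. The cause of these shifts was not tested beyond each setting's own construction. No paired analysis was possible because each antibody had 1 library and no result came from a test. The single input library, with a median of 3 tags at the HDAC3 peaks of these genes, limits every fold.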

Other observations

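Some genes of the wider tight junction list carried their highest peaks away from the gene ends; they were picked after their values were seen. Ybx3, whose product binds the SH3 domain of ZO-1, had no gene-end peak of either factor, yet its highest assigned peak scored 93 for HDAC3 and 464 for KLF4. Pard3, a polarity scaffold, had 47 HDAC3 and 40 KLF4 peaks assigned, with highest scores of 95 for HDAC3 and 359 for KLF4. Magi1, a junctional scaffold, had 52 HDAC3 and 28 KLF4 peaks. The median among genes nearest to any peak was 2 for each factor, and these numbers were not adjusted for gene length. Among the other claudins, the highest assigned Cldn14 peaks scored 65 for HDAC3 and 335 for KLF4.

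The letters shown for Cldn4 can be set beside all promoter windows by occupancy. TGANTCA was present in 14.6% of the 535 windows that held the centres of peaks of both factors and in 6.5% of the 30676 windows that held neither. It was in 12.3% of the 1040 windows with an HDAC3 centre and in 10.4% of the 1670 windows with a KLF4 centre. CCNCNCCC was present in 63.2% of windows with both centres, 56.1% with an HDAC3 centre, 64.0% with a KLF4 centre and 44.9% with neither. Windows of 1 gene can overlap, and base composition was not matched.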
